A study of Mus musculus with 10 samples.

Results

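The stretch described here is the first part of mouse chromosome 5, from 3 to 20 Mb in GRCm39, with the peaks of the transcription factor RUNX1 that were called in it. A peak was taken when its summit, the base of highest signal, lay in this 17 Mb segment of any of 6 peak lists, and peaks that overlapped by 1 bp or more were merged into regions. This gave 4994 regions of 64286 over the whole genome. The segment was chosen by measured values of these lists: the peak caller's local background there was far above that of the rest of the genome, and the lists of one batch placed an excess of peaks in it. Differences in background or in peak number between the segment and the rest of the genome are therefore given as description, without a test, and tests are kept to the treatment, which the choice did not use.

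RUNX1 chromatin immunoprecipitation and sequencing (ChIP-seq) had been done in mouse large biliary epithelial cells (MLE), cells of the lining of the larger bile ducts. Cells grown to near confluence received TGFβ overnight at 10 ng/mL, or vehicle, and the chromatin was cut enzymatically before a polyclonal RUNX1 antibody was added. Each treatment had 3 ChIP libraries with 1 peak list each, 2 in batch 1 (replicates 1 and 2) and 1 in batch 2 (replicate 3), as the labels give them, and all 6 come from the 1 cell type with no altered genotype stated. The labels do not say whether the same-treatment libraries of batch 1 were separate cultures, so p-values measure only the spread between these libraries, which may be technical. The 4 input libraries of the series were not analysed here. Where 3 values are given for a treatment, they are those of replicates 1, 2 and 3, the third being the batch 2 library.

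RUNX1 is a DNA-binding factor that works with its partner CBFβ and reads a short motif, and it can raise or lower transcription of the genes it is bound near. TGFβ is a secreted growth factor whose receptors activate SMAD proteins, which can act on DNA together with RUNX factors, and in bile ducts it is best known for its part in fibrosis. The genes named with this segment are those from Cdk6 to Hgf. Cdk6 encodes a cyclin-dependent kinase of the G1 phase of the cell cycle, Abcb1a and Abcb1b encode drug efflux pumps, Abcb4 encodes the canalicular phosphatidylcholine transporter of the liver, and Hgf encodes hepatocyte growth factor, the ligand of the Met receptor.

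In the RefSeq table for GRCm38.p6, the run from Cdk6 to Hgf holds 177 genes, of which 62 are protein-coding, 65 are pseudogenes and 44 are long non-coding RNAs. Near Cdk6 the table lists Krit1, a protein of endothelial junctions, Akap9, a scaffold for protein kinase A, and Cyp51, an enzyme of cholesterol synthesis. Further on come Fzd1, a Wnt receptor, Cdk14, another kinase of the cyclin-dependent family, Cldn12, a claudin of tight junctions, and the metalloreductases Steap2, Steap1 and Steap4. Adam22 and Dbf4, the regulatory subunit of the kinase that starts DNA replication, precede the run of Abcb1a, Abcb1b and Abcb4, which is followed by Crot, a peroxisomal carnitine acyltransferase, and Dmtf1. The far part of the run holds Grm3, a glutamate receptor, the secreted guidance ligands Sema3d, Sema3a and Sema3e, the presynaptic scaffold Pclo, members of the Speer family, Cacna2d1, a calcium channel subunit, and then Hgf. Sema3c, Cd36, Gnai1 and Magi2 come after Hgf and are not in the gene and promoter counts given here, which need not cover the whole segment. Positions in this table are from another build than the peaks, so no peak was assigned to a gene, promoter, exon or intron, and regions are given by position only. Of the protein-coding genes from Cdk6 to Hgf, 59 had a RefSeq promoter sequence in GRCm38.p6 (250 bases before to 50 after the start), with 66 promoters in all. The letters TGTGGT or TGCGGT, on either strand, stood in 13 of the 66 (19.7%), against 22.4% of all 32851 promoters in the table. None of the 6 promoters of Cdk6, Abcb1a, Abcb1b, Abcb4 and Hgf held them in this window.

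The raised background filled most of the segment and stopped short of 20 Mb. Background was recovered from each peak's fold and p-value as the caller's expected pileup of fragments at that base, and is given as a multiple of the lowest background of the same list. Its median over the segment's peaks was 4.32, 4.30 and 3.47 times the lowest under TGFβ, and 4.47, 4.45 and 3.52 times under vehicle. For peaks elsewhere it was 1.00 to 1.03 times. Over all 6 lists, 164 of the 170 windows of 100 kb in the segment held a peak, and 148 of them had a median of at least 2 times the lowest. Another 12 were under 1.5 times. The highest window, chr5:9600001-9700000, stood at 5.19 times. From 20 to 24 Mb, 0 windows reached 2 times.

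At the ends, the values changed over short distances. The first summit with a background of at least 2 times the lowest was at position 3120958, after a window (chr5:3000001-3100000) whose 15 peaks, all from batch 2, had a median of 1.00 times. The last was at 19738087, 16.6 Mb further on, with 3.24 times the lowest and a fold of 2.93 in TGFβ replicate 3. Vehicle replicate 3 had its last segment summit at 19738064, with 3.38 times and a fold of 2.54. Just inside the limit of 20 Mb, TGFβ replicates 1 and 2 had summits at 19803018 and 19853116 with folds of 2.35 and 2.02, both at 1.00 times. Just outside it, the first summits were at 20067554 in vehicle replicate 2 (fold 2.50) and 20068051 in TGFβ replicate 1 (fold 3.16), each also at 1.00 times. The limit of the segment thus lay beyond the last raised summit.

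Inside the segment there were breaks. The longest, chr5:10900001-11800000, held 124 peaks with a median of 1.15 times the lowest, 53 of them from TGFβ replicate 3 and 47 from vehicle replicate 3. A shorter one, chr5:15800001-15900000, held 58 peaks with a median of 1.28 times, 29 from TGFβ replicate 3 and 24 from vehicle replicate 3. Its median was 1.26 times in batch 2 and 3.61 times in the few batch 1 peaks, so batch 1 showed no break there. In the longest break, the windows with batch 1 peaks had batch 1 medians of 1.78 to 2.16 times. Medians over all lists thus mostly reflect batch 2 in these breaks. Between summits at 15111558 and 15634836 no list had a summit over 523278 bp, which was the widest gap in the segment. The next gaps, of 179827 and 172988 bp, both lay in the longest break.

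Batch 2 lists placed peaks over the whole segment, thinnest from 11 to 12 Mb, while batch 1 lists placed theirs mainly in 3 clusters. In bins of 1 Mb, TGFβ replicate 3 had 59 to 243 peaks with a median of 186, and vehicle replicate 3 had 51 to 244 with a median of 212. The batch 1 lists had medians of 48 (TGFβ replicate 1), 47 (TGFβ replicate 2), 15 (vehicle replicate 1) and 35 (vehicle replicate 2). Their fullest bin was the one from 17 to 18 Mb, with 173, 166, 49 and 116 peaks in that order. In the bin from 6 to 7 Mb the same lists had 6, 0, 9 and 16 peaks, against 216 and 244 in TGFβ and vehicle replicate 3.

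**Figure D1:**
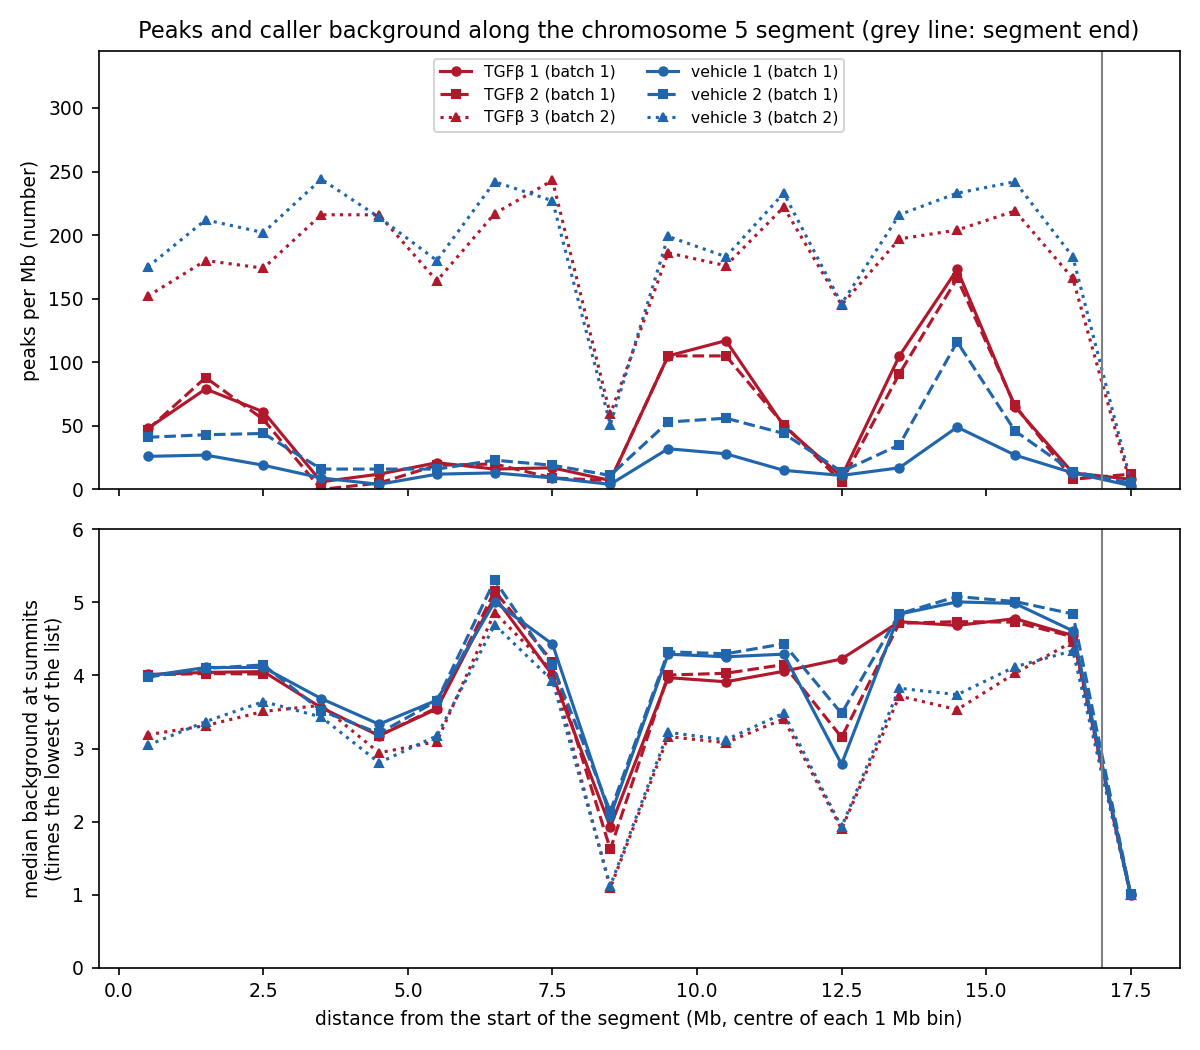
Peaks per 1 Mb bin (top) and median caller background at the summits in multiples of the lowest of the list (bottom), for each library, against distance from the segment start in Mb, with 1 bin beyond the segment end. Inside the segment batch 2 lists stay between 51 and 244 peaks per bin, batch 1 lists are highest in 3 groups of bins, and the background drops in all 6 lists in the bin 8 to 9 Mb from the start (11 to 12 Mb on the chromosome).

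The clusters of batch 1 peaks, delimited after the values were seen, lay at 3 to 6, 12 to 15 and 16 to 19 Mb. The stretch from 16 to 19 Mb is 17.6% of the segment's length and held 37.9% and 38.1% of the segment peaks of TGFβ replicates 1 and 2, 29.5% and 32.5% of those of vehicle replicates 1 and 2, and 19.8% and 20.4% of those of TGFβ and vehicle replicate 3. From 12 to 15 Mb, a stretch of the same length, the batch 1 lists in this order held 30.1%, 30.8%, 23.8% and 25.2% of their segment peaks. From 3 to 6 Mb, also 17.6% of the length, the excess was small, with 20.8%, 22.4%, 22.9% and 21.1%. In between, the stretch from 6 to 12 Mb, 35.3% of the length, held 8.73%, 7.08%, 16.2% and 16.6% of the batch 1 peaks (TGFβ replicates 1 and 2, then vehicle replicates 1 and 2). The batch 2 lists placed 35.6% (TGFβ) and 34.2% (vehicle) of their peaks there, close to its share of the length. Ranked over the 17 bins, peak numbers of batch 1 lists went together with Spearman coefficients of 0.891 to 0.981 for 6 pairs of libraries, and the batch 2 pair reached 0.903. The 8 pairs that crossed the batches had coefficients of 0.0381 to 0.356. These coefficients describe bins of the same chromosome that share the background and the caller, and carry no test.

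Peaks of the segment had low folds in every list. The median fold enrichment, the authors' own value per peak, was 1.77, 1.85 and 2.08 under TGFβ, against 3.24, 3.39 and 2.68 for the peaks elsewhere. Under vehicle it was 1.97, 1.81 and 2.06, against 3.11, 3.17 and 2.50 elsewhere. The pileup at the summits, that is how many fragments overlap there, was not low: its median ran from 77 (TGFβ replicate 3) to 94 (vehicle replicates 1 and 2), over background medians of 36.6 to 50.7. A fold under 2 was given to 69.8%, 62.5% and 39.9% of the segment peaks under TGFβ and to 53.0%, 67.4% and 43.0% under vehicle. A fold of 5 or more was reached by 5.30%, 9.08% and 1.31% under TGFβ and by 5.40%, 5.44% and 1.12% under vehicle. Peaks wider than 2000 bp numbered 82, 128 and 9 under TGFβ and 30, 59 and 15 under vehicle, so that the batch 2 lists, with the most peaks, had the fewest wide ones. The depth of the libraries is unknown from the lists, and folds are not scaled between libraries: where those of several lists stand side by side, they describe each list and give no measure of change.

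Most regions were called in few lists, and the batches divided them. Of the 4994 regions, 2289 (45.8%) were called in 1 list and 2244 (44.9%) in 2. Only 104 (2.08%) were called in all 6, against 6.36% of all regions of the genome. Both batch 2 lists and no batch 1 list called 1976 of the regions (39.6%), against 4.77% genome-wide. The converse, all 4 batch 1 lists and neither batch 2 list, held for 34 (0.681%), against 7.07% genome-wide. These shares touch the excess of batch 2 peaks by which the segment was chosen and are a description.

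The batch 2 lists had most of their segment regions in common. TGFβ and vehicle replicate 3 shared 2262 regions, 74.9% of the former's and 69.0% of the latter's, against 36.8% and 43.7% outside the segment. Their summits lay a median of 54 bp apart, against 58 bp outside. The segment was chosen by the excess of peaks in these lists, and dense lists overlap more. Their shares are therefore a description. The 1976 regions of batch 2 alone had a median fold of 2.13 in TGFβ replicate 3 and 2.14 in vehicle replicate 3. In batch 1, TGFβ and vehicle replicate 1 shared 178 regions, 22.4% and 67.7% of each (39.5% and 92.9% outside), and TGFβ and vehicle replicate 2 shared 284, 35.1% and 56.1% of each (41.9% and 91.3% outside). Same-treatment lists of batch 1 shared 468 regions under TGFβ, 58.8% and 57.8% of each (88.5% and 65.2% outside), and 191 under vehicle, 72.6% and 37.7% of each (90.6% and 61.9% outside). Across batches, summits within a shared region lay further apart, with medians of 120 to 473 bp against 39 to 112 bp within a batch. The smallest was between TGFβ replicate 3 and vehicle replicate 2 (82 bp outside the segment). The largest was between TGFβ replicate 1 and vehicle replicate 3 (168 bp outside).

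Under TGFβ, the lists held 905, 848 and 3136 segment peaks in replicates 1, 2 and 3, and under vehicle 315, 607 and 3382. Batch 1 TGFβ lists were above both batch 1 vehicle lists, the batch 2 list was below its vehicle list, and the treatments overlapped. The means were 1630 ± 1305 and 1435 ± 1693 (SD, n = 3). Their ratio of 1.14 had p = 0.6 in a two-sided exact permutation test, where 3 against 3 allows no p under 0.1. Paired by batch and title wording, the ratios were 2.87 and 1.40 in the pairs of batch 1 and 0.927 in batch 2. The geometric mean of these was 1.55, the value with the replicate block (exact sign flips, p = 0.5, smallest possible 0.25). Within batch 1 the ratio of means was 1.90 (exact permutation, p = 0.333, the smallest for 2 against 2), and batch 2 has 1 library a treatment. A ratio under 1 was found without TGFβ replicate 3 (0.611), without vehicle replicate 1 (0.817), without vehicle replicate 2 (0.882) and when each list was limited to its 14733 best peaks, the length of the shortest list (0.828). Without vehicle replicate 3 it was 3.54.

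Covered length gave a similar order. The segment peaks covered 0.776, 0.943 and 1.48 Mb under TGFβ (4.56%, 5.55% and 8.71% of the segment) and 0.271, 0.482 and 1.62 Mb under vehicle (1.59%, 2.83% and 9.51%). The means of 1.07 ± 0.369 and 0.790 ± 0.724 Mb (SD, n = 3) had a ratio of 1.35, with p = 0.5 in the same exact permutation test. By pair the ratios were 2.87, 1.96 and 0.917. Without vehicle replicate 3 the ratio was 2.84.

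Peaks with a fold of at least 5 numbered 48, 77 and 41 under TGFβ and 17, 33 and 38 under vehicle (replicates 1, 2 and 3). Every TGFβ list was above every vehicle list, by the least in batch 2. The means were 55.3 ± 19.1 and 29.3 ± 11 (SD, n = 3). Their ratio of 1.89 had p = 0.1 in the exact permutation test, the smallest p it can give. The pair ratios were 2.82, 2.33 and 1.08, and within batch 1 the ratio of means was 2.5. At the same fold limit, the segment's log2 ratio of TGFβ to vehicle minus that of the rest of the genome was -0.79. The ratio was thus the lower in the segment (two-sided exact permutation test, p = 0.5), and the higher count under TGFβ was not particular to it. A fold is relative to the local background, and where these peaks lay differed between batches, as described further on.

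Outside the segment the same lists held 32696, 41202 and 15654 peaks under TGFβ and 14418, 20995 and 12883 under vehicle, with pair ratios of 2.27, 1.96 and 1.22. Relative to this, the segment's log2 ratio of TGFβ to vehicle differed by 0.34 in the pair of replicates 1, by -0.49 in replicates 2 and by -0.39 in replicates 3. Over the libraries the log2 number of segment peaks per peak outside was -4.37 ± 1.78 under TGFβ and -4.19 ± 1.96 under vehicle (SD, n = 3), a difference of -0.18 (two-sided exact permutation test, p = 0.6). With 3 against 3 this test cannot reach 0.05, and the SDs hold the spread between batches, so it does not show that the segment and the rest respond alike. The sign of the difference turned without TGFβ replicate 1 (0.23), TGFβ replicate 2 (0.44) or vehicle replicate 3 (0.95), and it was -1.20 without TGFβ replicate 3, -0.84 without vehicle replicate 1 and -0.64 without vehicle replicate 2.

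**Figure D2:**
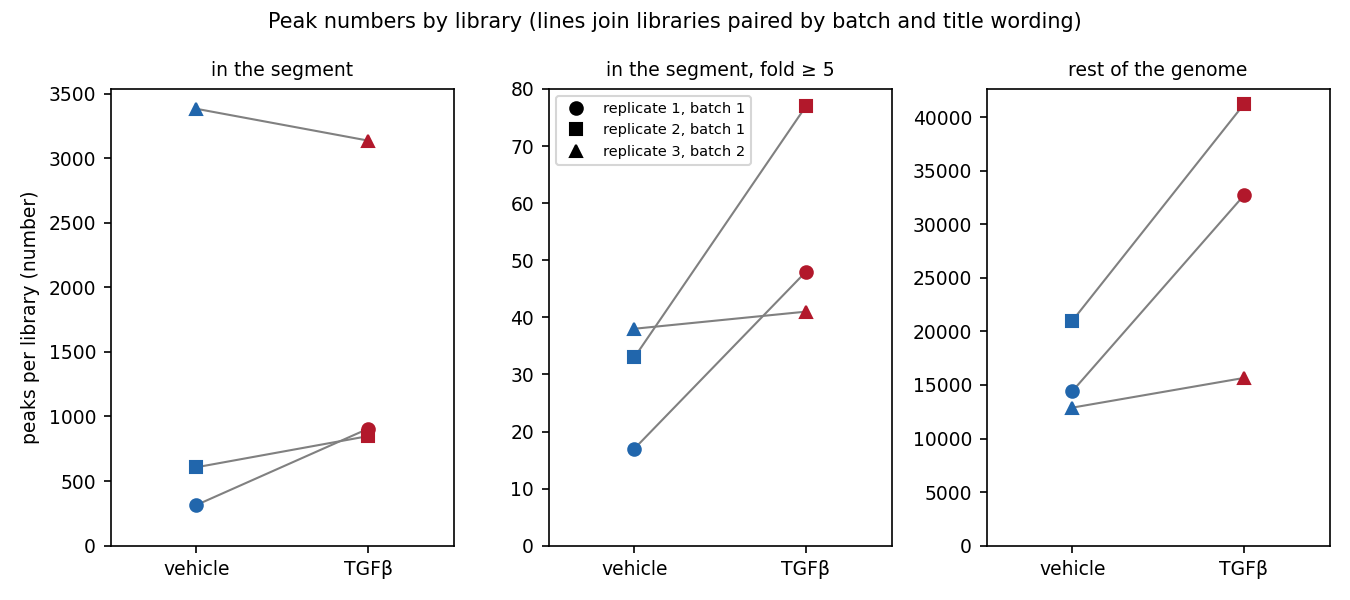
Number of peaks per library in the segment, in the segment at a fold of at least 5, and in the rest of the genome at any fold, with lines joining the TGFβ and vehicle libraries paired by batch and title wording (y axes differ and start at 0). In the segment, the batch 2 pair runs from 3382 to 3136 while both batch 1 pairs run upward under TGFβ. In the other panels each TGFβ library is above its vehicle library.

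Regions split by treatment in all 3 lists were rare. Called in every TGFβ list and no vehicle list were 14 regions (0.28%), against 0.619% of all regions. Called in every vehicle list and no TGFβ list were 4 (0.0801%), against 0.0109% genome-wide. These shares are of all regions, including the excess of batch 2 regions by which the segment was chosen, and are a description. By rank, the first TGFβ-only regions were chr5:14868576-14869769, with folds of 2.41, 2.69 and 2.13, and chr5:17280335-17281493, with 2.22, 2.11 and 2.22. The next were chr5:17381247-17383275, with 2.16, 2.33 and 2.10, chr5:17331885-17333716, with 1.81, 2.37 and 2.05, and chr5:13279092-13280501, with 2.52, 2.41 and 2.09. Of these first 5 regions, 3 lay in the bin from 17 to 18 Mb, the fullest of batch 1. Among the vehicle-only regions, chr5:14400991-14401342 had folds of 1.72, 1.66 and 1.77, and chr5:6996610-6997034 had 2.05, 1.71 and 2.00. The others were chr5:12410755-12411226, with 1.62, 1.76 and 2.03, and chr5:10772390-10772778, with 1.97, 1.98 and 1.69. The highest fold of any peak was 4.71 in the TGFβ-only and 2.05 in the vehicle-only regions. With lists of equal length the count of TGFβ-only regions was 3. Without TGFβ replicate 3 it was 168, without TGFβ replicate 1 it was 29, without TGFβ replicate 2 it was 21 and without vehicle replicate 3 it was 33. Leaving out vehicle replicate 1, 2 or 3 gave 17, 9 or 12 regions of vehicle alone, and leaving out TGFβ replicate 2 or 3 gave 6 or 8.

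Within batch 1, 200 regions (4.0%) were called in both TGFβ lists and neither vehicle list, against 16.0% of all regions. In the other direction there were 16 (0.32%), against 0.204% genome-wide. With lists of equal length these counts were 20 and 31, so that the direction turned. In the pair of replicates 1 alone they were 711 and 92, and in the pair of replicates 2 alone 553 and 231. The shares are of all regions, also those that no batch 1 list called. Both batch 2 lists and no batch 1 list called 39.6% of the segment's regions, against 4.77% genome-wide. The segment was chosen by this excess, so the shares of 4.0% and 0.32% are a description.

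The highest-ranked batch 1 region of TGFβ alone was chr5:16205659-16208142, with 3.81-fold and 4.71-fold enrichment in the batch 1 TGFβ lists, and TGFβ replicate 3 also had a peak there (1.80), which makes it 1 of the 14 TGFβ-only regions. The second, chr5:12156230-12158340, had 3.80 and 4.63, and both batch 2 lists called it too (2.06 under TGFβ and 1.85 under vehicle). Next were chr5:9291121-9292742 (3.29 and 3.72), chr5:4610811-4611856 (2.95 and 3.25) and chr5:13061211-13063396 (2.50 and 3.28). The highest-ranked region of vehicle alone in batch 1 was chr5:15104698-15105760, with 2.77 and 2.87. There the batch 2 lists had folds of 6.82 (TGFβ) and 6.49 (vehicle), so the split by treatment in batch 1 was not one in batch 2. Both batch 2 lists also called chr5:15057493-15057759, with 2.72 (TGFβ) and 2.77 (vehicle), beside 2.02 and 2.15 in the batch 1 vehicle lists. The others were chr5:16519916-16520176 (1.88 and 1.99), chr5:19308162-19308506 (1.82 and 1.89) and the region at 10772390 given above.

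In batch 2, TGFβ replicate 3 alone of the pair called 757 regions (15.2%), against 15.7% of all regions, and vehicle replicate 3 alone called 1015 (20.3%), against 12.5%. With 1 library a treatment this compares those libraries and not the treatments. The shares are of all merged regions, so they touch the excess of batch 2 peaks by which the segment was chosen and are a description. Taken over each list's own regions, the pair shared more inside the segment than outside. The shared part was 74.9% against 36.8% for TGFβ replicate 3, and 69.0% against 43.7% for vehicle replicate 3. These shares touch the same excess, since lists with many peaks in a stretch overlap more there, and are also a description. The strongest of TGFβ replicate 3 alone were chr5:11554843-11555157 (fold 5.37), chr5:14980309-14980582 (4.17) and chr5:6307698-6307969 (3.04). The strongest of vehicle replicate 3 alone were chr5:15049109-15049376 (5.19), chr5:15730586-15730863 (6.26) and chr5:5855642-5855910 (3.91).

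The 104 regions called in all 6 lists held each of the 10 regions that ranked highest over the lists. Their median fold was 4.51, 5.81 and 2.55 under TGFβ, and 2.99, 3.51 and 2.29 under vehicle. In each batch 1 list they stood high among the segment's peaks, with median percentile ranks of 92.8 and 92.7 under TGFβ and 81.4 and 90.3 under vehicle, and in batch 2 they stood at 88.8 (TGFβ) and 75.7 (vehicle). Each region was picked by being called in every list and took its strongest peak there, and an absent call counted as 0 in the median rank. High ranks therefore follow in part from the choice and are a description. By position, 14, 13 and 13 of the 104 regions lay in the bins from 3 to 4, 4 to 5 and 5 to 6 Mb, and 14 in the bin from 17 to 18 Mb. The bins starting at 6, 7, 10 and 19 Mb held 0. The bins starting at 11 and 15 Mb held 1 each: chr5:11221091-11221641, with folds of 3.33, 3.44 and 4.42 under TGFβ and 4.19, 3.09 and 4.76 under vehicle, and chr5:15915741-15916313, with 3.61, 3.28 and 7.19 under TGFβ and 4.56, 3.91 and 6.09 under vehicle.

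The strongest site was chr5:3199227-3204587. Its folds of 44.7, 58.8 and 6.36 under TGFβ and of 14.2, 16.6 and 4.64 under vehicle made it the first of all segment peaks in each batch 1 list, the sixth in TGFβ replicate 3 and number 21 in vehicle replicate 3. The overlapping fragments at its summit numbered 1197, 1455 and 262 under TGFβ and 455, 584 and 178 under vehicle. Summits of 4 lists fell on the same base, 3202324, and those of TGFβ replicates 1 and 2 on 3202256 and 3202257, so all 6 lay within 68 bp. The called width was 4530 and 5361 bp in the batch 1 TGFβ lists, 2468 and 3884 bp in the batch 1 vehicle lists, and 792 and 732 bp in TGFβ and vehicle replicate 3.

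Next by median rank over the 6 lists was chr5:5607583-5610638, with folds of 12.7, 18.3 and 6.62 under TGFβ and 9.11, 9.72 and 4.90 under vehicle. It stood among the 10 best peaks of every list, and its summits lay within 31 bp. The third, chr5:16040877-16046008, was a batch 1 site by rank: folds of 16.6 and 18.6 under TGFβ and 8.98 and 9.40 under vehicle in replicates 1 and 2 put it at ranks 2 to 4, while folds of 2.87 and 2.34 put it at ranks 76 and 348 in TGFβ and vehicle replicate 3. The fourth, chr5:4291014-4301210, spanned 10197 bp. Its folds were 24.8, 29.0 and 3.40 under TGFβ and 9.68, 11.3 and 3.18 under vehicle, and its ranks were 2, 2 and 38 and then 4, 2 and 43.

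Of the other 6 sites, 3 ranked within the first 33 of every list. At chr5:17774230-17782975 the folds were 8.44, 11.8 and 5.71 under TGFβ (ranks 15, 8 and 3) and 6.05, 8.28 and 3.49 under vehicle (ranks 9, 6 and 33). For chr5:9044781-9048612 they were 8.26, 8.93 and 5.14 under TGFβ (ranks 17, 17 and 8) and 7.11, 8.94 and 4.40 under vehicle (ranks 6, 5 and 7). In chr5:4151705-4156294 they were 10.2, 12.5 and 5.72 under TGFβ (ranks 13, 14 and 7) and 6.32, 7.73 and 4.41 under vehicle (ranks 8, 8 and 12).

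The remaining 3 ranked within the first 16 in every batch 1 list and lower in batch 2. These were chr5:3348376-3353608, with folds of 15.6, 21.5 and 2.83 under TGFβ and 7.85, 9.05 and 2.89 under vehicle, and chr5:13574050-13579583, with 14.6, 19.2 and 4.30 and then 7.08, 7.48 and 3.45. At chr5:4544287-4547488 the folds were 14.5, 18.0 and 3.31 under TGFβ and 5.44, 6.71 and 2.27 under vehicle, and its rank in vehicle replicate 3 was 662.

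**Figure D3:**
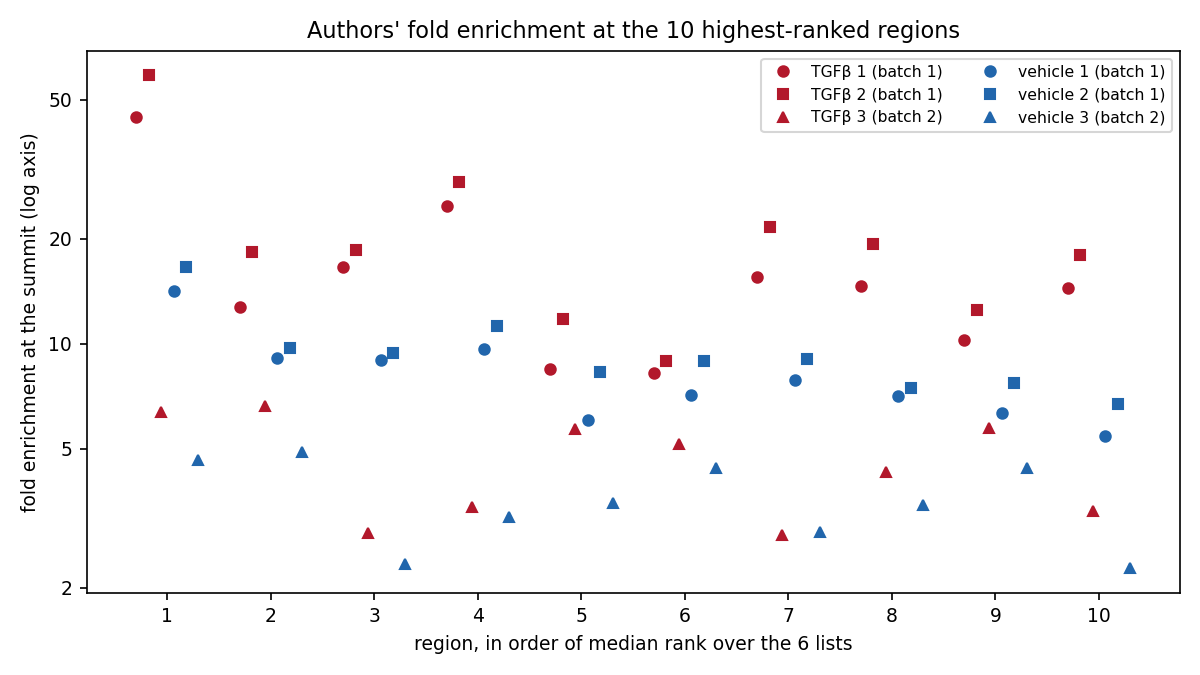
Fold enrichment at the summit (log axis, the authors' value) in each of the 6 libraries at the 10 regions with the highest median rank, in rank order. Batch 2 libraries (triangles) lie at 2.27 to 6.62, batch 1 libraries (circles and squares) start at 5.44, and TGFβ replicates 1 and 2 reach 44.7 and 58.8 at the first.

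Only 3 regions were among the 20 strongest of every list: chr5:5607583-5610638, chr5:9044781-9048612 and chr5:4151705-4156294. The longest region of the segment was chr5:17481645-17493516, 11872 bp, with folds of 11.9, 13.8 and 2.80 under TGFβ and 3.98, 4.28 and 2.12 under vehicle.

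Many of the strongest sites of batch 2 lay in the bin from 15 to 16 Mb, beside sites that also led batch 1. The first in both batch 2 lists was chr5:15080989-15081516, with a fold of 13.6 in TGFβ and in vehicle replicate 3, 325 and 348 overlapping fragments, and the summit on the same base, 15081219. No batch 1 list called it. In vehicle replicate 3 the next were chr5:15110894-15112595 (fold 10.8) and chr5:15054256-15054865 (6.77), which in TGFβ replicate 3 had folds of 10.2 and 6.60 and ranks of 9 and 10. In TGFβ replicate 3 ranks 2 and 3 went to chr5:5607583-5610638 and chr5:17774230-17782975, described above for batch 1 too. Of the 20 strongest regions, 8 in TGFβ replicate 3 and 13 in vehicle replicate 3 lay in this bin, and 0 in any batch 1 list. They made 14 different regions, of which 4 were called in a batch 1 list at any rank. The like share of the strongest batch 2 regions outside the segment was not taken. The bin held 145 and 146 peaks in TGFβ and vehicle replicate 3, and 10 and 6 (TGFβ) and 11 and 14 (vehicle) in batch 1.

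The peaks with a fold of at least 5 show the same division. The bins starting at 11 and 15 Mb held 26 of 41 such peaks in TGFβ replicate 3 and 30 of 38 in vehicle replicate 3, and 0 in each batch 1 list. In these bins their background was low, with medians of 1.31 (TGFβ) and 1.39 (vehicle) times the lowest of the list. Outside these bins, TGFβ replicate 3 had 15 strong peaks and vehicle replicate 3 had 8, against 48 and 77 in the batch 1 TGFβ lists and 17 and 33 in the batch 1 vehicle lists. There the background under strong peaks was 3.96 to 4.26 times the lowest in batch 1, 3.86 times in TGFβ replicate 3 and 1.05 times in vehicle replicate 3. Whether the low background in those bins accounts for the high folds of batch 2 was not tested.

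**Figure D4:**
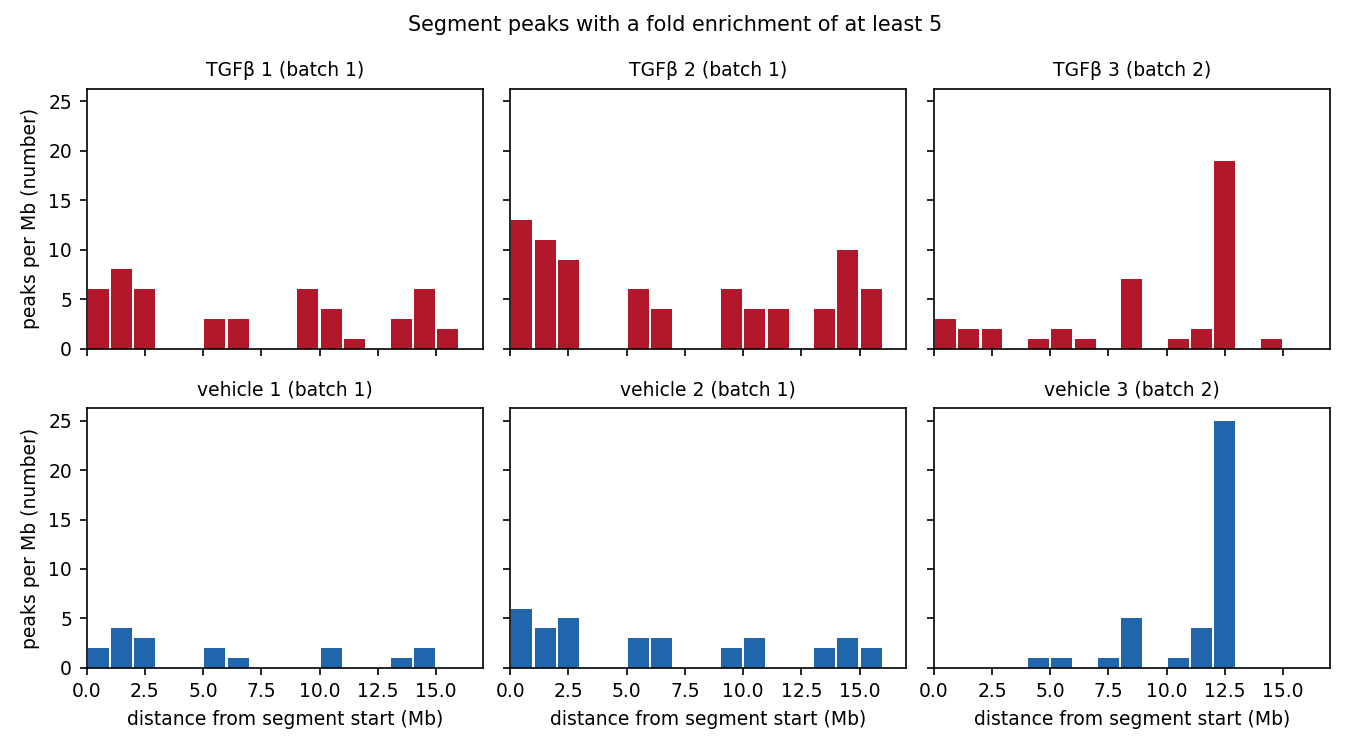
Number of segment peaks with a fold of at least 5 in each 1 Mb bin, by library, against distance from the segment start in Mb. The tall bars of TGFβ and vehicle replicate 3 (19 and 25 peaks) stand in the bin 12 to 13 Mb from the start (15 to 16 Mb on the chromosome), where the batch 1 libraries have none.

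Strong regions were nested by treatment in batch 1. All 17 regions with a fold of at least 5 in vehicle replicate 1 had one in TGFβ replicate 1, where they were 35.4% of 48. All 33 of vehicle replicate 2 had one in TGFβ replicate 2, where they were 42.9% of 77. The batch 2 libraries shared 25, 61.0% of the 41 of TGFβ replicate 3 and 65.8% of the 38 of vehicle replicate 3. These shares were not taken outside the segment at this fold, so the nesting is not shown to be particular to the segment. Outside it, at any fold, the paired TGFβ list called 92.9% and 91.3% of the regions of vehicle replicates 1 and 2. For vehicle replicate 3 it was 43.7%.

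Among the 20 strongest regions of each list, TGFβ replicates 1 and 2 had 19 in common and vehicle replicates 1 and 2 had 16. TGFβ and vehicle lists of batch 1 had 14 or 15 in common, and the batch 2 lists had 13. Across batches the number was 3 to 9, lowest between TGFβ replicate 1 or 2 and vehicle replicate 3, and highest between vehicle replicate 1 and TGFβ replicate 3. In all, 14 regions were among the 20 strongest of every batch 1 list, and of the 27 regions in either batch 2 top 20, 11 were called in no batch 1 list. Among the 10 strongest of each list the division was less sharp: pairs within a batch had 5 to 9 in common and pairs across batches 1 to 6, and TGFβ replicate 3 had 6 in common with vehicle replicate 1 against 5 with vehicle replicate 3. These counts carry no test. They were not taken for the strongest regions outside the segment, so a division particular to the segment is not shown. Outside it, a given batch 1 list called 35.3% to 53.4% of a batch 2 list's regions of any rank. The lowest was vehicle replicate 3 with vehicle replicate 1, and the highest TGFβ replicate 3 with TGFβ replicate 2.

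**Figure D5:**
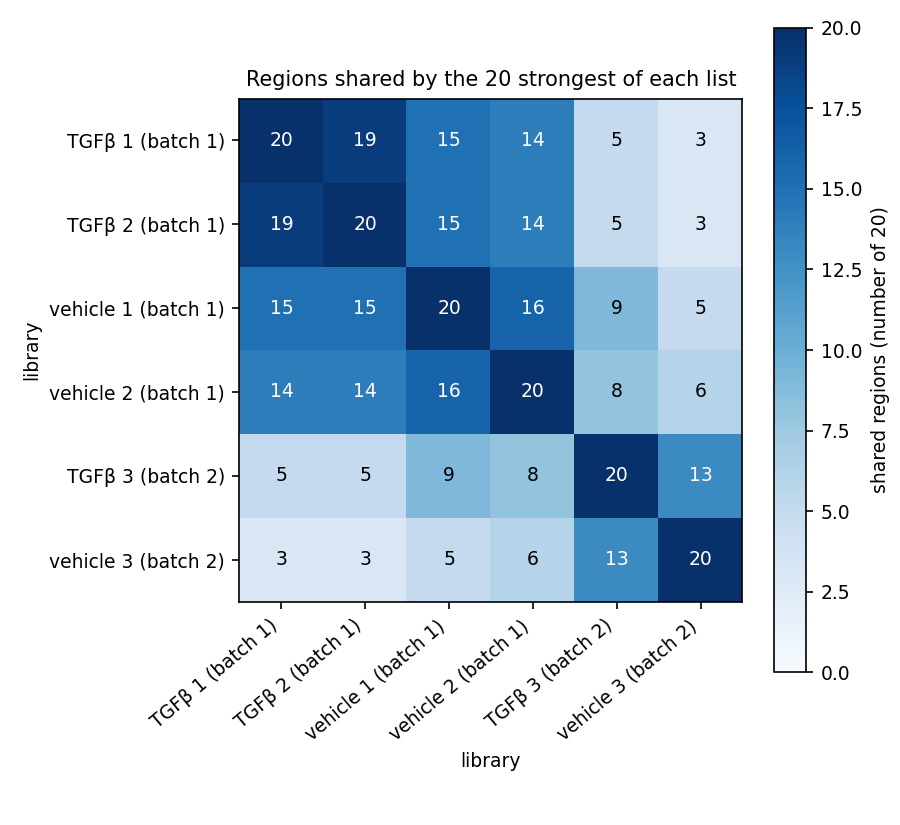
Number of regions shared by the 20 strongest of each pair of libraries, batch 1 first on both axes, with each list's own 20 on the diagonal. Pairs within batch 1 share 14 to 19, the batch 2 pair shares 13, and pairs across batches share 3 to 9.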

How the data were processed

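RUNX1 ChIP-seq peak lists of 6 libraries (3 TGFβ, 3 vehicle) were used as deposited, in narrowPeak format. Per the submitters' processing notes, the tools named are DRAGEN, Trimmomatic, Bowtie2 2.5.2 and MACS2, with the build GRCm39 (mm39). Settings and the control library are not given in the sources used here. Each deposited peak carries the authors' fold enrichment over local background (a ratio), p- and q-values as −log10, a score and a summit. Coordinates are 1-based.

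From these, lists were merged at 1 bp overlap, and a region took, from each list, its peak of highest −log10 q. With fold taken as (pileup + 1)/(background + 1) and p as a Poisson tail, the share of peaks matched by a whole-number pileup was 99.975% to 99.991% per list within 0.001 on the −log10 p scale. Only peak lists were used, without read counts per region, so numbers per library were compared by exact permutation. The lowest −log10 q lay just above 1 in each list, taken as a q-value threshold of 0.1.

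Libraries were paired by the batch label and by title wording. Over the segment regions, the correlation r between paired libraries' deviations from their group means was 0.233, 0.294 and 0.437 for replicates 1, 2 and 3. The group means run over both batches, so the batch difference enters these values. They do not show which libraries of batch 1 belong together. Regions named are the 10 with the highest median percentile rank, the 3 strongest of each list, and the best treatment-only regions (5 over all lists, 5 in batch 1, 3 in batch 2). Members, lists and tests were chosen with earlier results of these data known. The code was tested on simulated data. Python 3.11.15, NumPy 2.4.6, pandas 2.3.3 and SciPy 1.17.1 were used. The planned shares of regions at promoters and with a RUNX motif were not run, since no genome or gene table of GRCm39 was at hand. Alternatives were stricter thresholds, equal list length, narrower peaks, the segment core, batch 1 only, the pairing and each library left out.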

Additional observations from a re-analysis of the deposited data

Results flagged for a closer look

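The difference in segment peak number between TGFβ and vehicle libraries pointed in opposite directions in the batches. In batch 2 the ratio of TGFβ to vehicle was 0.927 (3136 against 3382 peaks), while in the batch 1 pairs it was 2.87 (905 against 315) and 1.40 (848 against 607). The difference between batches was not tested, since batch 2 has 1 library a treatment. Outside the segment all 3 pairs had a ratio above 1. Groups of 3 libraries were not checked for libraries far from the others.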

How the results depend on the processing

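Peak number (ratio of TGFβ to vehicle 1.14) kept its direction in 10 of 14 alternatives. It was 0.828 with lists of equal length and 0.611 to 3.54 over the settings that left out 1 library, falling below 1 without TGFβ replicate 3 (0.611), vehicle replicate 1 (0.817) or vehicle replicate 2 (0.882). Covered length (1.35) kept its direction in all 14, from 1.02 to 2.84 with 1 library left out, with 1.06 at equal list length and 3.12 at a fold of at least 5. The difference from the rest of the genome (-0.18 on the log2 scale) turned in 3 of 14 (0.23 without TGFβ replicate 1, 0.44 without TGFβ replicate 2, 0.95 without vehicle replicate 3), the range with 1 library left out being -1.20 to 0.95. With the replicate block, that is the pairing of libraries, the values were 1.55, 1.73 and -0.18, and it changed no other call of these 3. With batch 1 averaged per treatment, chosen after seeing the data, they were 1.04, 1.17 and -0.23. The 14 TGFβ-only regions were 0 at a fold of at least 5, 3 at equal list length, 6 with summit windows of 200 bp, 201 with batch 1 only, a mean of 633.3 per pair with the replicate block, and 14 to 168 with 1 library left out. The 4 vehicle-only regions were 0 at a −log10 q of at least 5 and at a fold of at least 5, 2 at equal list length, 7 with peaks no wider than 2000 bp and with summit windows, 16 with batch 1 only, a mean of 440.7 per pair with the replicate block, and 4 to 17 with 1 library left out. The 200 batch 1 regions of TGFβ alone were 102, 21 and 20 at a −log10 q of at least 5, a fold of at least 5 and equal list length, and 553 to 711 with either pair alone. The 16 of vehicle alone were 3, 0 and 31 under the same settings, 56 with peaks no wider than 2000 bp, 34 with summit windows and 92 to 231 with either pair alone. With fewer lists to satisfy, counts are larger by construction, and with fewer peaks per list they can be smaller. For the other moves the cause was not tested. The alternatives for promoter distance and motif were not run. The depth is unknown from peak lists, so a region that was not called may lie just under the caller's threshold.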
